A study of Mus musculus with 12 samples.

Results

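The 6 Ctrl libraries of the series, 3 from the colon and 3 from the urinary bladder, were compared to describe how these muscular hollow organs differed in mice with no gene deleted. They are 6 of 12 libraries. All mice were males of 5 to 7 weeks with floxed alleles of *Yap1* and *Wwtr1* (the gene of TAZ), on a mixed background, and were injected with tamoxifen on 5 days, at 1 mg for each mouse and day. Tissue was taken at day 7 after the first injection. The Ctrl mice were Cre-negative and so kept both genes, whereas the other 6 libraries (Y/T KO) came from mice that also carried the Y-chromosomal *Myh11*-CreERT2 transgene, active in smooth muscle. Values are always given with the colon first, in the order of mice 788, 786, and 787 for the colon and of mice 784, 785, and 788 for the bladder. A single mouse stands behind each library, and mouse 788 gave both tissues, so that 5 mice were used. Of 54532 genes in the tables, 18445 had at least 0.5 TPM (a gene's length-adjusted share of the transcripts of its library) in at least 3 of the 6 libraries and were tested.

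Colon and bladder walls share a plan of an inner epithelium, a connective tissue layer with vessels, nerves, and immune cells, and an outer coat of smooth muscle. The colonic lining is a single layer of absorptive, mucus-secreting, and hormone-producing cells renewed from crypts, and its muscle coat holds the ganglia of the enteric nervous system. The bladder is lined by the urothelium, a layered barrier sealed by uroplakin plaques, and its thick detrusor muscle is driven by nerves whose ganglia lie largely outside or on the surface of the organ. The libraries were made from whole tissue, so that fewer cells of a type and less RNA per cell cannot be told apart.

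The labelled tissues were checked against their defining markers. The colonic transcription factor *Cdx2* was at 69.4, 30.04, and 50.99 TPM in the colon and listed at 0 in all 3 bladders, and villin (*Vil1*), which bundles actin in the brush border, was at 370.3, 338, and 361 TPM in the colon and 0.322, 0.129, and 0.175 TPM in the bladder. The uroplakin gene *Upk2* was at 0, 0, and 0.172 TPM in the colon and 812, 799, and 778 TPM in the bladder, and *Krt5*, the keratin of basal urothelial cells, was at 0.712, 0.584, and 0.228 TPM in the colon and 423, 586, and 537 TPM in the bladder. These markers followed the labels in all 6 libraries. *Muc2*, the main gel-forming mucin of colonic goblet cells, did not, as it was at 0.0288, 0.253, and 0.187 TPM in the colon and listed at 0 in all 3 bladders and was too low to be tested, while other goblet cell genes were abundant in the colon as given below. The smooth muscle genes *Acta2*, *Myh11*, and *Des* were high in both organs, as given below.

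Some libraries stood apart within their tissue. The bladder of mouse 784 held transcripts of accessory sex glands, with the spermine-binding protein gene *Sbp* at 36341, 14.3, and 35.3 TPM in the 3 bladders, *Msmb* at 2410, 0, and 0.507 TPM, and probasin (*Pbsn*) at 967, 0, and 0.728 TPM. The accessory gland list took 5.75% of the summed TPM of that library, compared with 0.0219% and 0.0265% in the other bladders and 0.350% to 0.389% in the colon, where *Hoxb13*, *Spink1*, and *Ceacam10* of this list are themselves colonic transcripts. The same bladder held fast skeletal muscle transcripts, with the myosin gene *Myh4* at 46.1, 0, and 0 TPM and *Pvalb* at 82.6, 0, and 0 TPM. Among the colons, that of mouse 786 had 7.35% of its TPM in mitochondrially encoded genes against 3.70% and 4.50%, and listed the tight junction gene *Cldn2* at 0.0468 TPM against 176 and 167 TPM in the others. The bladder of mouse 785 had the highest share of immediate-early genes, 0.308% against 0.0671% and 0.131%. Called differences printed below that moved by over 1.5-fold without the bladder of mouse 784 or the colon of mouse 786 are given with and without that library. One mitochondrial gene, *mt-Co2*, was listed at 0 in the colon of mouse 788, so that a low value in these tables, as for *Muc2*, can be a failed estimate. A value of 0 is given as listed, and no fold is given for a gene at 0 in all libraries of a tissue.

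Within a tissue the log2 values of any pair of libraries correlated at 0.95 to 0.97 across genes, and between tissues at 0.71 to 0.74. Genes were tested with limma on log2(TPM + 0.1) after scaling libraries to a common median ratio, and differences are log2 colon minus bladder with their SE (n = 3 libraries per tissue). At an adjusted p under 0.05, 4694 genes were higher in the colon (25.4% of those tested) and 4665 in the bladder (25.3%). At least 4-fold differences made up 1462 (7.93%) and 1466 (7.95%) of the genes. Shares of list members called are to be read beside the 25.4% and 25.3%. The median of all tested genes was 0.03. Colon and bladder libraries did not overlap for 59.4% of all tested genes. The same contrast in the 6 Y/T KO libraries, which share no mouse with the Ctrl libraries, had the same direction for 96.6% of the 9359 called genes and was called in that direction for 75.6%. The scaling bears on the balance of calls. The colon held 50.2% of the calls on the common scale, 35.8% with TPM as deposited, 39.4% with upper-quartile scaling, and 95.7% on a scale that sets 12 core contractile genes equal, which moved the median of all genes from 0.03 to 2.09. That last scale gives levels relative to muscle RNA, and lists described below whose median or balance of calls turned on it are named with the turned value.

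**Figure D1:**
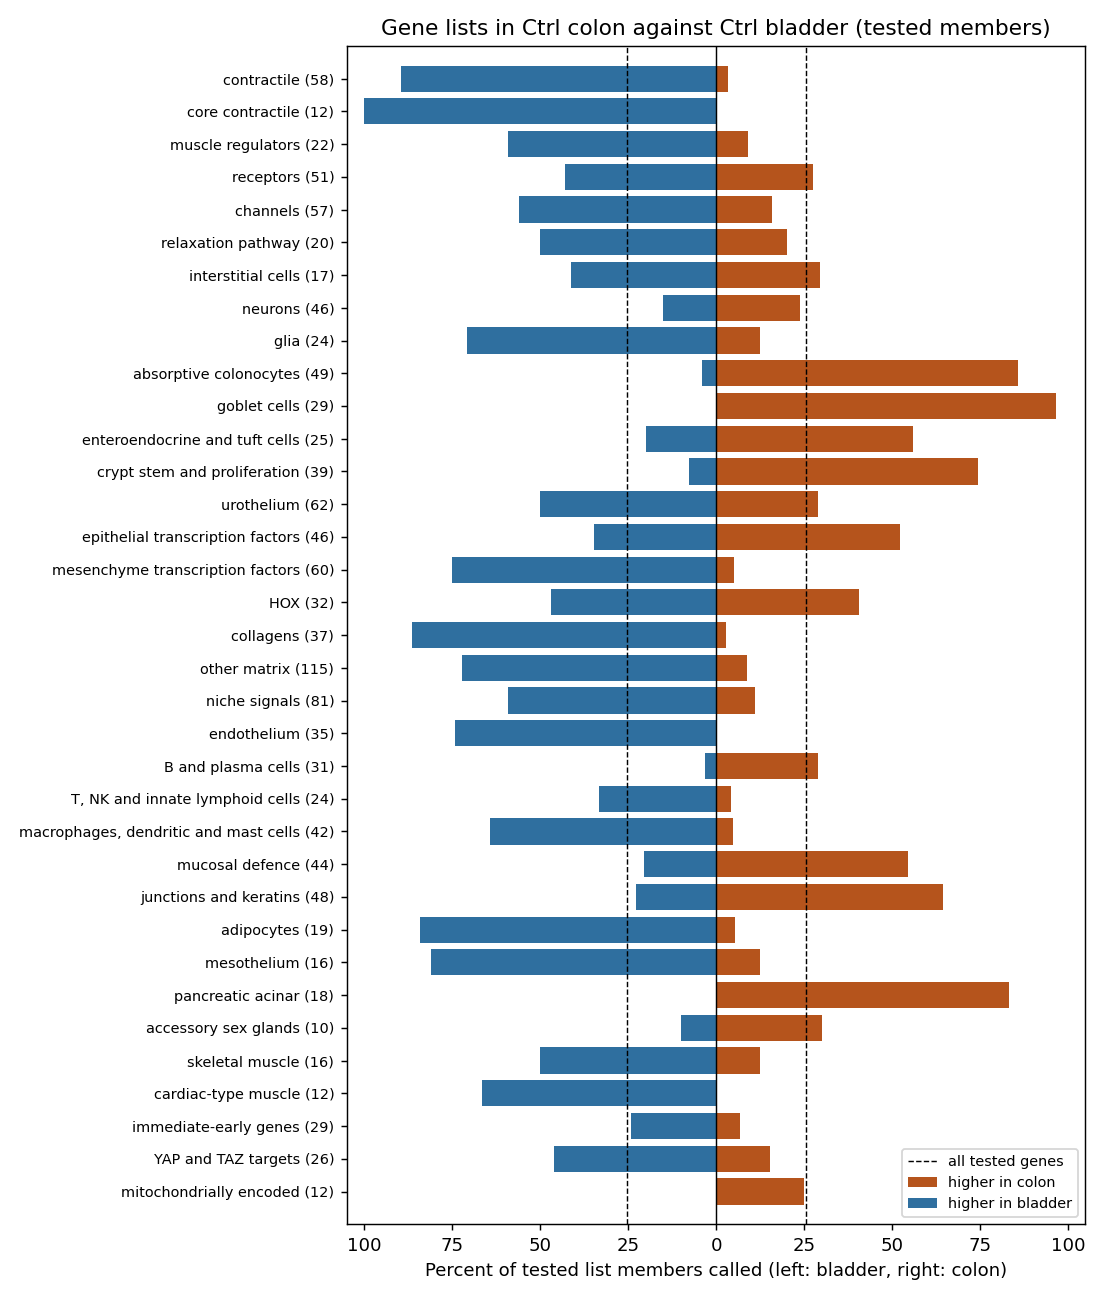
Percent of tested members of each of the 35 gene lists called higher in the Ctrl bladder (left, blue) or in the Ctrl colon (right, orange), with the number tested in parentheses. Dashed lines are the percents over all tested genes, 25.3 and 25.4, and the contractile, collagen, and adipocyte bars reach far left of them while the absorptive and goblet cell bars reach far right. On the scale relative to core contractile genes the medians of the contractile and collagen lists turn to the colon and that of the adipocyte list does not.

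Smooth muscle transcripts were among the most abundant products of the bladder and lay several-fold lower in the colon. Of 58 tested contractile genes, 52 were higher in the bladder and 2 in the colon (25.3% and 25.4% of all genes), with a median of -1.84 that became 0.26 relative to the 12 core contractile genes, which are themselves on the list. The 59 genes of the list took 2.25%, 1.95%, and 2.19% of the summed TPM in the colon and 6.92%, 8.73%, and 8.16% in the bladder (exact permutation test, two-sided p = 0.1, the smallest that 3 against 3 libraries allow). Smooth muscle α-actin (*Acta2*) was at 2009.9, 1899.8, and 2008 TPM in the colon and 9646, 12578, and 9492 TPM in the bladder, a log2 difference of -2.15 ± 0.16, adjusted p = 4.84e-05. Smooth muscle myosin heavy chain (*Myh11*) was at 355, 452, and 377 TPM in the colon and 2454, 2652, and 2479 TPM in the bladder (-2.42 ± 0.11, adjusted p = 5.73e-06). *Mylk*, the kinase that starts contraction by phosphorylating myosin light chain, was at 154, 225, and 162 TPM in the colon and 1423, 1361, and 1386 TPM in the bladder (-2.70 ± 0.14, adjusted p = 8.25e-06). The groups did not overlap for any of these genes, as for 59.4% of all tested genes. All 12 core members, among them *Actg2*, *Tagln*, *Cnn1*, and *Des*, were called in the bladder.

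The members called in the colon were *Myl12b*, a nonmuscle-type myosin light chain, and the LIM protein gene *Crip1*. *Myl12b* was at 430, 434, and 448 TPM in the colon and 162, 190.3, and 183 TPM in the bladder (1.56 ± 0.11, adjusted p = 4.26e-05). *Crip1* was at 3407, 1859, and 3249 TPM in the colon and 722, 1122, and 832 TPM in the bladder (1.91 ± 0.30, adjusted p = 0.00178). A further gene model at this locus has exons that overlap those of both *Myl12b* and its neighbor *Myl12a* on the same strand, so that reads could be split between them. The 4 members not called in either direction were *Dmd*, *Fhl2*, *Tpm4*, and *Myl12a*, and the light chain gene *Myl12a* overlapped between the tissues, at 252, 182, and 217 TPM in the colon and 334, 509, and 205 TPM in the bladder.

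Sarcomere genes usually met in striated muscle were also high in the bladder. Skeletal α-actin (*Acta1*) was at 3.36, 5.76, and 3.18 TPM in the colon and 1331, 1137, and 1057 TPM in the bladder (-7.91 ± 0.21, adjusted p = 4.76e-07). Cardiac α-actin (*Actc1*) was at 7.50, 12.8, and 4.18 TPM in the colon and 429.9, 542, and 511 TPM in the bladder (-5.78 ± 0.33, adjusted p = 1.85e-05). Cardiac troponin T (*Tnnt2*) was at 15.2, 19.4, and 11.5 TPM in the colon and 322, 242, and 225 TPM in the bladder (-3.84 ± 0.21, adjusted p = 1.17e-05). These genes were high in all 3 bladders, whereas the fast skeletal genes *Myh4* and *Atp2a1* were listed at 0 in the bladders of mice 785 and 788, and *Acta1* differed by -7.81 without the bladder of mouse 784. Of 12 tested genes on the cardiac-type list, 8 were higher in the bladder and none in the colon, among them *Myl4* at 5.83, 3.87, and 5.58 TPM in the colon and 82.2, 128, and 145 TPM in the bladder. Relative to the core contractile genes *Acta1*, *Actc1*, *Tnnt2*, and *Myl4* were still higher in the bladder, at -5.82, -3.68, -1.74, and -2.14. Slow skeletal troponin I (*Tnni1*) went the other way, at 182, 122, and 142 TPM in the colon and 4.88, 0.177, and 0.207 TPM in the bladder (7.84 ± 1.11, adjusted p = 0.00154). So did *Smpx*, at 45.1, 53.4, and 51.4 TPM in the colon and 7.85, 0.452, and 0.283 TPM in the bladder. Without the bladder of mouse 784 these differences were 9.19 and 7.00.

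Among regulators of the muscle program, 13 of 22 were higher in the bladder and 2 in the colon, a direction that turned relative to the core contractile genes (median 1.23). *Myocd*, the coactivator that drives smooth muscle genes through SRF, was at 2.15, 5.29, and 1.11 TPM in the colon and 44.2, 34.8, and 42.4 TPM in the bladder (-3.79 ± 0.47, adjusted p = 0.000604), and remained higher in the bladder relative to muscle genes, at -1.72. *Srf* itself differed less, at 22.4, 22.4, and 19.02 TPM in the colon and 45.6, 63.3, and 49.9 TPM in the bladder (-1.04 ± 0.15, adjusted p = 0.00109). The genes that the floxed alleles target were expressed in both organs, *Yap1* at 54.9, 52.8, and 45.8 TPM in the colon and 101.1, 98.6, and 109.8 TPM in the bladder (-0.75 ± 0.11, adjusted p = 0.00118) and *Wwtr1* at 16.8, 21.5, and 17.2 TPM in the colon and 32.5, 61.6, and 53.3 TPM in the bladder (-1.10 ± 0.23, adjusted p = 0.00583). Of 26 genes known as YAP and TAZ targets, 12 were higher in the bladder and 4 in the colon (median -0.99, and 1.09 relative to the core contractile genes). The classic targets *Ctgf*, at 87.5, 74.2, and 107 TPM in the colon and 28.03, 769, and 63.96 TPM in the bladder, and *Cyr61*, at 22.3, 16.05, and 34.6 TPM against 7.28, 658, and 93.1 TPM, were not called. For both, the bladder of mouse 785 lay far above all other libraries. *Cyr61* was called in the bladder without the bladder of mouse 784 (-3.14, adjusted p = 0.0283), and *Ctgf* was called in the colon without that of mouse 785 (1.31, adjusted p = 0.0306).

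**Figure D2:**
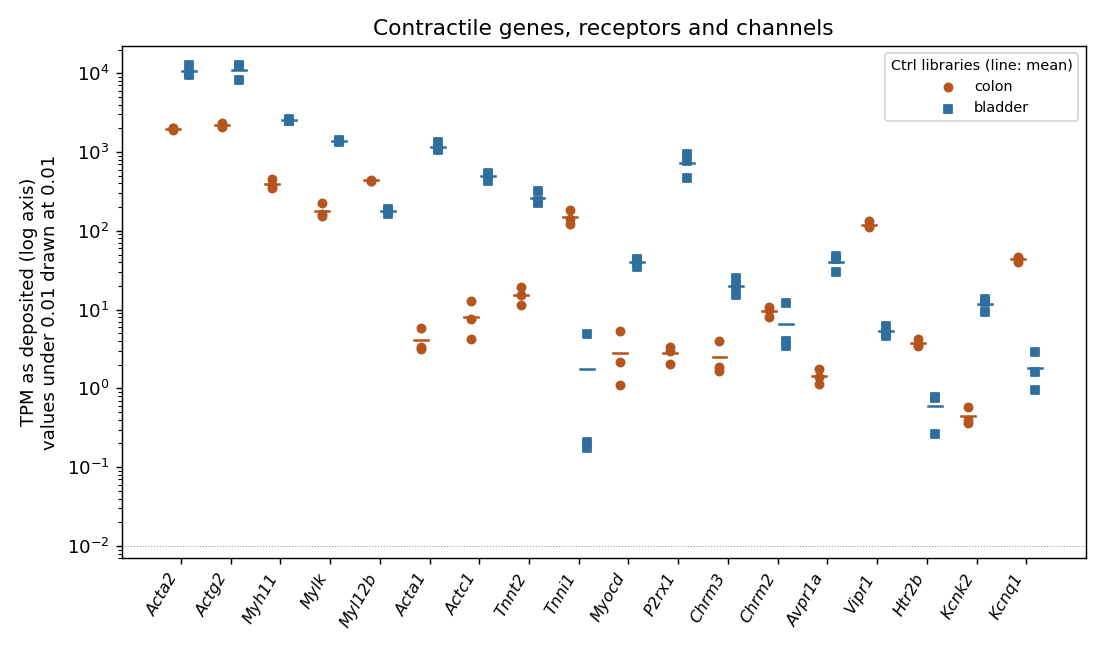
TPM as deposited, on a log axis, of contractile genes, receptors, and channels in each Ctrl colon (circles) and Ctrl bladder (squares) library, with lines at the means. At these levels the bladder lies above the colon for *Acta2* through *Mylk*, for *Acta1*, *Actc1*, and *Tnnt2*, and for *P2rx1*, whereas *Tnni1*, *Vipr1*, *Htr2b*, and *Kcnq1* lie higher in the colon and *Chrm2* overlaps. *Acta2*, *Actg2*, and *Myh11* are not called once the core contractile genes are set equal. They are themselves among the genes set equal, so that this loss follows largely from the scale.

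Genes of the receptor list, not all of them receptors of muscle, were divided between the organs. Of 51 tested, 22 (43.1%) were higher in the bladder and 14 (27.5%) in the colon, the latter near the 25.4% of all genes (median -0.37, and 1.71 relative to the core contractile genes). The largest difference was that of *P2rx1*, the ATP-gated channel through which nerves excite the detrusor, at 3.35, 2.96, and 2.02 TPM in the colon and 765, 464, and 946 TPM in the bladder (-7.69 ± 0.29, adjusted p = 2.35e-06), and relative to muscle genes it was still -5.60. The muscarinic receptor gene *Chrm3* was at 1.89, 3.97, and 1.64 TPM in the colon and 24.9, 19.7, and 15.5 TPM in the bladder (-2.77 ± 0.34, adjusted p = 0.000499), a difference not called relative to muscle genes (-0.70, adjusted p = 0.121). *Chrm2*, the other muscarinic receptor of smooth muscle, overlapped, at 9.89, 10.7, and 8.14 TPM in the colon and 3.95, 12.1, and 3.48 TPM in the bladder (1.04 ± 0.45, adjusted p = 0.0973), and was called in the colon without the bladder of mouse 785 (1.58, adjusted p = 0.00193). Relative to muscle genes *Chrm2* was also called in the colon (3.105, adjusted p = 9.25e-05). Vasopressin receptor 1a (*Avpr1a*), at 1.38, 1.75, and 1.13 TPM in the colon and 47.3, 30.2, and 44.1 TPM in the bladder, and the adenosine receptor gene *Adora2b*, at 1.14, 2.17, and 0.850 TPM in the colon and 22.4, 26.6, and 27.4 TPM in the bladder, also stood out in the bladder. Both were also called there relative to muscle genes, at -2.42 and -1.90.

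On the colonic side the VIP receptor gene *Vipr1* was at 116, 133, and 112 TPM in the colon and 6.18, 5.07, and 4.64 TPM in the bladder (4.74 ± 0.15, adjusted p = 1.2e-06). The serotonin receptor gene *Htr2b* was at 3.49, 3.58, and 4.21 TPM in the colon and 0.776, 0.264, and 0.752 TPM in the bladder (2.81 ± 0.40, adjusted p = 0.00105). The histamine receptor gene *Hrh1* was at 9.66, 8.46, and 8.81 TPM in the colon and 1.82, 1.95, and 1.91 TPM in the bladder (2.44 ± 0.19, adjusted p = 6.13e-05). *F2rl1*, a protease-activated receptor of epithelia, was at 70.5, 80.5, and 73.6 TPM in the colon and 8.97, 8.76, and 6.64 TPM in the bladder. None of these receptor genes overlapped between the organs, as for 59.4% of all tested genes. Whole tissue does not show which cells expressed them.

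Channel genes leaned to the bladder, 32 of 57 (56.1%) against 9 (15.8%) in the colon (median -0.98, and 1.11 relative to the core contractile genes). The L-type calcium channel *Cacna1c*, the main route of calcium entry in smooth muscle, was at 4.28, 5.35, and 3.31 TPM in the colon and 20.4, 23.95, and 26.3 TPM in the bladder (-2.18 ± 0.18, adjusted p = 9.17e-05). *Kcnma1*, the large-conductance potassium channel, was at 4.46, 12.8, and 6.35 TPM in the colon and 27.2, 25.4, and 23.3 TPM in the bladder (-1.55 ± 0.33, adjusted p = 0.00675). Neither difference was called relative to muscle genes. By contrast, the mechanosensitive potassium channel *Kcnk2* was at 0.392, 0.585, and 0.368 TPM in the colon and 9.40, 12.6, and 13.8 TPM in the bladder (-4.22 ± 0.25, adjusted p = 1.83e-05). The small-conductance channel *Kcnn2* was at 0.542, 0.601, and 0.444 TPM in the colon and 8.22, 12.5, and 7.90 TPM in the bladder (-3.67 ± 0.27, adjusted p = 4.59e-05). The stretch- and heat-sensitive *Trpv4*, which is also on the urothelium list, was at 1.53, 1.24, and 0.819 TPM in the colon and 23.9, 32.3, and 26.7 TPM in the bladder (-4.20 ± 0.25, adjusted p = 1.91e-05). These 3 remained higher in the bladder on that scale, at -2.26, -1.70, and -2.15. *Kcnq1*, which serves epithelial ion transport, was higher in the colon, at 45.6, 40.5, and 47.1 TPM against 2.86, 0.945, and 1.63 TPM.

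Of 20 genes of the relaxation pathway, 10 were higher in the bladder and 4 in the colon (median -0.82, and 1.23 relative to the core contractile genes). The inositol trisphosphate receptor partner *Mrvi1*, a target of cGMP-dependent kinase, was at 17.1, 25.1, and 16.7 TPM in the colon and 139, 145, and 96.2 TPM in the bladder (-2.42 ± 0.21, adjusted p = 0.000102). The subunit genes of the nitric oxide receptor were not called, *Gucy1a1* being at 10.2, 19.5, and 12.3 TPM against 20.9, 15.9, and 19.8 TPM and *Gucy1b1* at 12.03, 16.7, and 11.4 TPM against 15.3, 11.1, and 11.8 TPM. Relative to muscle genes both subunit genes were called in the colon, at 1.885 and 2.415. Neuronal nitric oxide synthase (*Nos1*) was not called on the common scale either, at 2.46, 3.40, and 1.99 TPM against 5.77, 4.16, and 0.629 TPM (0.26 ± 0.76, adjusted p = 0.803). Relative to muscle genes *Nos1* was called in the colon (2.246, adjusted p = 0.0242). Genes of hydrogen sulfide-producing enzymes were higher in the colon, *Cbs* at 115, 76.3, and 113 TPM against 4.39, 0.487, and 0.250 TPM and *Cth* at 61.5, 83.9, and 77.4 TPM against 6.74, 12.2, and 7.40 TPM. Of 17 genes of interstitial cells, 7 (41.2%) were higher in the bladder and 5 (29.4%) in the colon (median -0.66, and 1.45 relative to the core contractile genes). Here the colonic share lay near the 25.4% of all genes. *Kit*, which marks pacemaker cells of the gut and also mast cells, was at 27.9, 33.8, and 42.9 TPM in the colon and 18.7, 12.4, and 12.9 TPM in the bladder (1.51 ± 0.24, adjusted p = 0.00193). The pacemaker chloride channel gene *Ano1* was not called, with the colon of mouse 786 above all other libraries, at 85.2, 252, and 70.8 TPM in the colon and 94.5, 98.1, and 93.3 TPM in the bladder, and its difference was 0.03, adjusted p = 0.847 without that library. Relative to muscle genes *Ano1* was called in the colon (2.64, adjusted p = 0.00221). *Thbs4* separated the organs most on this list, at 272, 239.9, and 290.1 TPM in the colon and 3.91, 2.89, and 1.88 TPM in the bladder (6.79 ± 0.28, adjusted p = 3.55e-06).

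Most neuronal genes were not called between the organs, and their levels varied widely among the 3 bladders. Of 46 tested, 28 were not called, 7 were higher in the bladder, and 11 in the colon, both under the share of all genes called (25.3% and 25.4%), with a median of 0.12 that became -0.11 with TPM as deposited. The synaptic gene *Snap25* was at 13.8, 13.9, and 12.2 TPM in the colon and 31.5, 16.2, and 2.25 TPM in the bladder (0.59 ± 0.92, adjusted p = 0.631). *Npy*, a peptide of sympathetic nerves, was at 6.32, 3.06, and 4.40 TPM in the colon and 93.5, 47.3, and 7.29 TPM in the bladder (-2.57 ± 0.93, adjusted p = 0.0597). *Dbh*, the enzyme that makes noradrenaline, was at 4.43, 2.82, and 4.09 TPM in the colon and 18.7, 7.75, and 0.312 TPM in the bladder (0.20 ± 1.35, adjusted p = 0.916). For each of these genes the bladder of mouse 784 was highest and that of mouse 788 was the lowest bladder, while the colons lay closer together. *Npy* was called in the bladder without the bladder of mouse 788 (-3.65, adjusted p = 0.00124). *Dbh* was not called with all libraries but was called in the bladder without that of mouse 788 (-1.44, adjusted p = 0.0429). Without the bladder of mouse 784, 7 neuronal genes were called in the bladder and 16 in the colon, and without that of mouse 788, 16 and 10.

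The members called in the colon included neuropeptides. *Vip*, a relaxing transmitter of enteric neurons, was at 104.98, 82.1, and 104 TPM in the colon and 34.2, 17.1, and 3.83 TPM in the bladder (3.13 ± 0.77, adjusted p = 0.0151). Galanin (*Gal*) was at 26.4, 24.6, and 25.9 TPM in the colon and 1.29, 0, and 0 TPM in the bladder (6.89 ± 0.98, adjusted p = 0.00123). Without the bladder of mouse 784 the differences of *Vip* and *Gal* were 3.83 and 8.11, and without that of mouse 788 2.23 and 6.25. *Tac1*, the gene of substance P, was at 48.3, 37.1, and 42.6 TPM in the colon and 23.5, 0, and 0.0770 TPM in the bladder (6.01 ± 1.99, adjusted p = 0.0444). It was called without the bladder of mouse 784, at 8.46, but not without any other single library, at 4.57 to 6.16. *Sst*, *Nmu*, and *Calb2* also had colonic calls, and *Sst* is shared with enteroendocrine cells. The members called in the bladder included genes that were level across the bladders. *Rbfox3*, the gene of the nuclear antigen NeuN, was at 0.216, 0.262, and 0.223 TPM in the colon and 67.2, 67.7, and 82.96 TPM in the bladder (-7.54 ± 0.18, adjusted p = 3.06e-07), and *Uchl1*, the gene of PGP9.5, was at 31.8, 22.004, and 24.3 TPM in the colon and 389, 376, and 333 TPM in the bladder (-3.56 ± 0.18, adjusted p = 9.74e-06). Both lay close together among the 3 bladders, and both remained higher there relative to muscle genes, at -5.66 and -1.46.

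Glial and Schwann cell genes leaned to the bladder, 17 of 24 against 3 in the colon (median -1.47, and 0.59 relative to the core contractile genes). *Gfap*, a marker of enteric glia, was higher in the colon, at 3.16, 2.52, and 3.18 TPM against 0.597, 0.209, and 0.696 TPM (2.68 ± 0.42, adjusted p = 0.0016). The other members called there were *Erbb3* and *Pmp22*, which epithelia also express. The bladder with the highest nerve transcripts, that of mouse 784, also held the accessory gland share given above and the highest share of the skeletal muscle list, 0.308% against 0.189% and 0.171%, and the part of attached tissue in the nerve values was not tested.

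**Figure D3:**
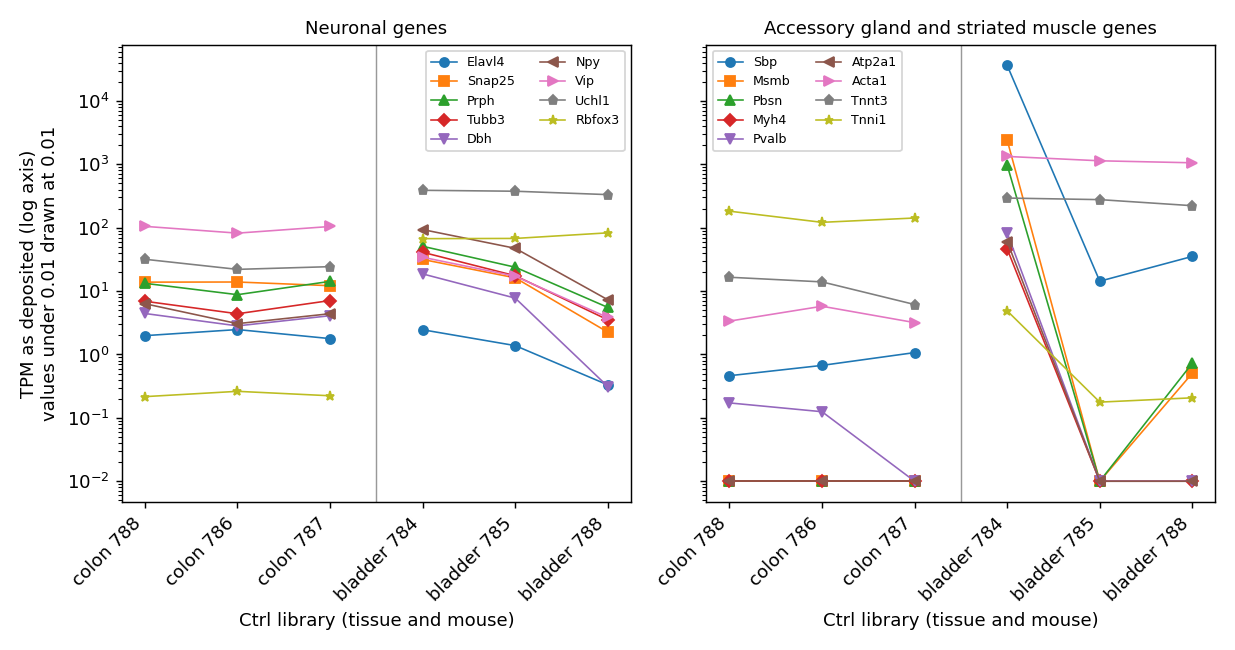
TPM as deposited, on a log axis, of neuronal genes (left) and of accessory gland and striated muscle genes (right) in each Ctrl library, with lines joining the libraries of a tissue as an aid to the eye. Most neuronal genes are highest in the bladder of mouse 784 and lowest in that of mouse 788 while *Rbfox3* and *Uchl1* are level, and *Sbp*, *Msmb*, *Pbsn*, *Myh4*, *Pvalb*, and *Atp2a1* peak in the bladder of mouse 784 alone while *Acta1* and *Tnnt3* are level.

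Epithelial genes differed widely. Absorptive colonocyte genes were higher in the colon in 42 of 49 cases and in the bladder in 2 (median 8.16), and goblet cell genes in 28 of 29 cases and in the bladder in 0 (median 5.78). The antibacterial protein gene *Lypd8* was at 21435, 19847, and 18471 TPM in the colon and 8.46, 9.20, and 4.53 TPM in the bladder (11.70 ± 0.28, adjusted p = 3.06e-07). The chloride-bicarbonate exchanger *Slc26a3* was at 516, 689, and 403 TPM in the colon and 2.38, 5.86, and 1.42 TPM in the bladder (7.79 ± 0.48, adjusted p = 2.97e-05). The goblet cell lectin *Zg16* was at 17186, 14324, and 21629 TPM in the colon and 2.55, 1.60, and 0.554 TPM in the bladder (13.82 ± 0.52, adjusted p = 4.12e-06). The mucosal trefoil peptide *Tff3* was at 4595, 3634, and 4646 TPM in the colon and 0.844, 0, and 0 TPM in the bladder (14.45 ± 0.85, adjusted p = 3.75e-05). Without the bladder of mouse 784 *Tff3* differed by 15.48, and without that of mouse 788 *Zg16* differed by 13.23. Together the absorptive list took 4.05% to 4.45% of the TPM of the colon and 0.0787% to 0.0995% of that of the bladder. The members higher in the bladder included *Scnn1g*, a subunit of the epithelial sodium channel, at 2.75, 3.66, and 1.45 TPM against 30.7, 30.02, and 40.3 TPM. Of the other sodium channel subunits, *Scnn1a* was higher in the colon, at 78.6, 72.4, and 75.4 TPM against 4.62, 2.35, and 2.81 TPM, and *Scnn1b* overlapped, at 12.9, 11.3, and 6.10 TPM against 11.1, 11.6, and 12.01 TPM.

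Some colonic genes were higher in the bladder of mouse 784, the library with accessory gland transcripts, than in the other bladders. *Pigr*, which carries IgA across epithelia, was at 2076, 2163, and 2154 TPM in the colon and 198, 8.99, and 9.98 TPM in the bladder, and the goblet cell gene *Agr2* was at 3509.9, 3633, and 4387 TPM in the colon and 125, 7.53, and 12.6 TPM in the bladder. Their differences were 6.60 and 7.64 with all libraries and 8.07 and 8.88 without that bladder. *Spink1* was at 3317, 2901, and 3038 TPM in the colon and 1240, 0.812, and 0 TPM in the bladder, and its call lay at the edge of the threshold (9.51 ± 3.26, adjusted p = 0.05) and was lost without any single library other than the bladder of mouse 784, compared with 13.49 (adjusted p = 0.000115) without that bladder. The transporter *Slc12a2* was not called with all libraries (2.48 ± 1.04, adjusted p = 0.092) but differed by 3.76 (adjusted p = 2.57e-05) without it. The defensin gene *Defb1* was higher in the bladder, at 0.0960, 0, and 0 TPM in the colon and 201, 14.4, and 15.1 TPM in the bladder, also without it (-6.70).

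Of the hormone genes of enteroendocrine cells, *Pyy*, *Insl5*, and *Gcg* were listed at 0 in all 3 bladders. In the colon, *Pyy* was at 209.6, 127, and 192 TPM, *Insl5* at 289, 219, and 288 TPM, and *Gcg*, the gene of glucagon-like peptides, at 39.2, 27.5, and 42.9 TPM. Of 25 genes on the list of enteroendocrine and tuft cells, 5 were higher in the bladder and 14 in the colon, the former including cholecystokinin (*Cck*), at 0.423, 0.516, and 0.415 TPM against 20.4, 22.7, and 15.99 TPM. Genes of crypt stem cells and proliferation were higher in the colon in 29 of 39 cases and in the bladder in 3 (median 1.52). *Mki67*, which marks cycling cells, was at 40.03, 65.03, and 55.2 TPM in the colon and 8.01, 10.4, and 18.7 TPM in the bladder (2.43 ± 0.30, adjusted p = 0.000585). *Lgr5*, a marker of crypt stem cells, was not called, at 3.56, 7.87, and 3.77 TPM in the colon and 9.83, 3.23, and 2.77 TPM in the bladder.

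Genes of the urothelium list were divided. Of 62 tested, 31 were higher in the bladder and 18 in the colon (median -0.66, and 1.45 relative to the core contractile genes). Of the uroplakins, which build the apical plaque, *Upk1a* was at 17.9, 13.4, and 17.05 TPM in the colon and 1794, 1697, and 1635 TPM in the bladder, and *Upk3a* was at 1.18, 0.0700, and 0.0850 TPM in the colon and 1066, 1182, and 1159 TPM in the bladder. *Trp63*, a transcription factor of basal cells, was at 0.0710, 0.0770, and 0.0170 TPM in the colon and 46.98, 46.1, and 66.4 TPM in the bladder (-8.25 ± 0.27, adjusted p = 1.39e-06). None of these genes overlapped between the organs, as for 59.4% of all tested genes. The water channel *Aqp3* was at 0.309, 0.624, and 0 TPM in the colon and 329, 308, and 358 TPM in the bladder (-9.88 ± 0.68, adjusted p = 5.04e-05), at -10.48 without the colon of mouse 786 and -9.04 without that of mouse 787. The small proline-rich protein *Sprr1a* was at 8.72, 10.3, and 4.98 TPM in the colon and 2043, 2554, and 2403 TPM in the bladder (-7.96 ± 0.23, adjusted p = 7.72e-07). The members higher in the colon included keratin genes of both epithelia, such as *Krt8*, at 3607, 2390.4, and 3347 TPM in the colon and 537, 622, and 566 TPM in the bladder, and *Krt20*, a keratin of surface cells in both organs, at 585, 571, and 633 TPM in the colon and 128, 142, and 162 TPM in the bladder. The partner keratin *Krt18* was not called, at 755, 489, and 700.4 TPM in the colon and 997, 1191, and 1128 TPM in the bladder, and was called in the bladder without the colon of mouse 786 (-0.28, adjusted p = 0.0381). Among 48 junction and keratin genes, 31 were higher in the colon and 11 in the bladder.

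Epithelial transcription factors were divided, 24 of 46 to the colon and 16 to the bladder. *Hnf4a*, a nuclear receptor of intestinal epithelium, was at 374, 314, and 286 TPM in the colon and 0.204, 0.232, and 0.0430 TPM in the bladder (10.57 ± 0.33, adjusted p = 1.03e-06). The vitamin D receptor *Vdr* was at 173, 227, and 177 TPM in the colon and 2.98, 2.48, and 3.23 TPM in the bladder (6.26 ± 0.14, adjusted p = 3e-07). *Gata3*, needed in the urothelium, was at 0.286, 0.204, and 0.287 TPM in the colon and 72.96, 65.9, and 97.8 TPM in the bladder (-7.54 ± 0.23, adjusted p = 1.01e-06). *Grhl1* was at 0.218, 0.357, and 0.519 TPM in the colon and 31.7, 25.96, and 26.5 TPM in the bladder (-5.73 ± 0.30, adjusted p = 1e-05). *Foxa2* and the xenobiotic receptor *Nr1i2* were listed at 0 in all bladders, with *Foxa2* at 40.7, 33.3, and 38.3 TPM in the colon, and *Tfap2c* and *Elf5* were listed at 0 in all colons. *Foxa1*, a factor of both epithelia, was nearer in level, at 35.03, 31.2, and 31.6 TPM in the colon and 54.6, 54.2, and 59.8 TPM in the bladder (-0.52 ± 0.12, adjusted p = 0.00929).

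Named by size of difference, the 12 genes furthest toward the colon were *Sval1*, *Tff3*, *Muc3*, *Spink4*, *Reg4*, *Zg16*, *Sycn*, *Cyp2c55*, *Gm5485*, *Muc13*, *Clca1*, and *Hao2*, among those without overlap and with a mean of at least 50 TPM in the higher tissue. Most of them are secreted or mucus-forming products of the mucosa. *Sval1* was at 3235, 3610.1, and 3389 TPM in the colon and 0.302, 0, and 0 TPM in the bladder, and *Clca1*, which processes mucus, was at 2807, 2916, and 3269 TPM in the colon and 3.27, 0.219, and 0.130 TPM in the bladder. The 12 furthest toward the bladder were *Upk2*, *Fam25c*, *Sptssb*, *Upk3a*, *Snx31*, *Ivl*, *Psca*, *Aqp3*, *Cyp4f15*, *Wfdc15b*, *9530014B07Rik*, and *Krt5*. Involucrin (*Ivl*), a protein of the cornified envelope, was at 0.305, 0.171, and 0 TPM in the colon and 405, 461, and 399 TPM in the bladder, and *Snx31*, a sorting nexin of umbrella cells, was at 0.140, 0.0310, and 0 TPM in the colon and 310.4, 340.4, and 320.3 TPM in the bladder. In the lower tissue, *Reg4*, *Cyp2c55*, *Gm5485*, *Hao2*, *Fam25c*, *Cyp4f15*, *Wfdc15b*, and *9530014B07Rik* were listed at 0 in all 3 libraries, so that the order of the genes depends on the 0.1 TPM added. Among the genes at the highest levels in the bladder, *Gstm1*, a glutathione transferase, was at 424, 354, and 458 TPM in the colon and 6698, 8016, and 8341 TPM in the bladder (-3.96 ± 0.17, adjusted p = 4.12e-06).

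Promoter sequences were taken from RefSeq (GRCm38.p6), as windows from 250 bases before to 50 bases after a start site, for a member of the contractile list and for 3 colonic epithelial genes, to show the letters at which regulators of the 2 tissue programs named above, SRF and HNF4, are known to bind. A CArG box, the site SRF binds, lay in 10 of 72 windows of the contractile list (8 of 53 genes with a window) and in 1.63% of all 32851 windows, counted on both strands. An HNF4 motif, spelled CAAAGTCCA or CAAAGGTCA and counted on both strands, lay in 2 of 41 windows of the absorptive list, 2 of 72 windows of the contractile list, and 0.95% of all windows. A CArG box lay in 1 of 41 windows of the absorptive list, that of *Vil1*, and in 1 of 9 windows of the core contractile genes. A match describes letters and is not a shown binding site, and no match was found in most windows of either list. The CArG box is in capitals in the windows of *Myl9*, a light chain gene at 1139, 949, and 1112 TPM in the colon and 2314, 4902, and 4836 TPM in the bladder, and of *Vil1*, which was higher in the colon as given above, and the HNF4 motif is in capitals in those of *Slc26a3* and *Muc13*, the latter at 1796, 1489, and 1609 TPM in the colon and 0.184, 0.102, and 0.142 TPM in the bladder.
Myl9 (chr2:156775214-156775513, plus strand, CArG box from -161): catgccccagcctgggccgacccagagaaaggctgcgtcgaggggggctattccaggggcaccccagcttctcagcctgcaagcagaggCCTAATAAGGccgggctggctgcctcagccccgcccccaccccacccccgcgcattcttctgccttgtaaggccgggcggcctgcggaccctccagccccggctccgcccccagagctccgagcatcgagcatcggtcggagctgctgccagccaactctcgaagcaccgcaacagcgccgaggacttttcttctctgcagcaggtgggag
Vil1 (chr1:74409134-74409433, plus strand, CArG box from -73): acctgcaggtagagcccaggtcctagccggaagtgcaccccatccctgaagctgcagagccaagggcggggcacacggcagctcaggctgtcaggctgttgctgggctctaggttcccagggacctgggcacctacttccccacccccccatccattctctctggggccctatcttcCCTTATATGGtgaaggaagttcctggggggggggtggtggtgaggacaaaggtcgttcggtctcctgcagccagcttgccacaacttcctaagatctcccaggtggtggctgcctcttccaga
Slc26a3 (chr12:31437969-31438268, plus strand, HNF4 motif from -136): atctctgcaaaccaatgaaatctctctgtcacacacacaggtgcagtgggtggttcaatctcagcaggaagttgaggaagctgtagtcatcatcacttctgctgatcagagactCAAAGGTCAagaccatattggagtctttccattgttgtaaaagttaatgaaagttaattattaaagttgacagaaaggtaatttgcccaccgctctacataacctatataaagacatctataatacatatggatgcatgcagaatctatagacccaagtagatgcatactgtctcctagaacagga
Muc13 (chr16:33794239-33794538, plus strand, HNF4 motif from -186, on the minus strand): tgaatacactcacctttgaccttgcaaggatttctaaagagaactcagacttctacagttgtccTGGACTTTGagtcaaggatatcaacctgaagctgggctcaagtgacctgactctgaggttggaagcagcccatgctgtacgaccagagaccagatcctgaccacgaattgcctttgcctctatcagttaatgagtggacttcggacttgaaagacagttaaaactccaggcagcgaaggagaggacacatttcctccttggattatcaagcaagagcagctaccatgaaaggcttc

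Position genes of the HOX clusters, which record place along the body axis, separated the organs cluster by cluster. Of 32 tested, 15 were higher in the bladder and 13 in the colon (median -0.51, which turned to the colon relative to the core contractile genes). The tested HOXA genes from *Hoxa2* to *Hoxa9* were higher in the colon, as in *Hoxa5* at 16.95, 14.8, and 18.8 TPM in the colon and 3.17, 3.06, and 3.91 TPM in the bladder (2.54 ± 0.20, adjusted p = 6.05e-05), whereas *Hoxa10* and *Hoxa11* were higher in the bladder, the latter at 7.40, 8.70, and 9.62 TPM in the colon and 41.6, 37.2, and 49.97 TPM in the bladder (-2.05 ± 0.17, adjusted p = 8.1e-05). *Hoxa9* overlapped, at 25.9, 29.3, and 28.4 TPM against 21.4, 19.01, and 27.8 TPM (0.57 ± 0.16, adjusted p = 0.0203), and lost its call without the colon of mouse 787 or the bladders of mice 784 or 785, at 0.44 to 0.55. *Hoxa13*, at 44.4, 53.6, and 45.2 TPM in the colon and 50.1, 37.2, and 50.7 TPM in the bladder, was not called. In the HOXB cluster the order was the other way round. *Hoxb2* to *Hoxb8*, with the exception of *Hoxb5*, were higher in the bladder, and *Hoxb9* was higher in the colon, at 38.1, 40.4, and 32.3 TPM against 3.45, 2.92, and 2.55 TPM (3.85 ± 0.18, adjusted p = 5.7e-06). *Hoxb13* was at 368, 231, and 310.1 TPM in the colon and 39.3, 0.865, and 1.65 TPM in the bladder (6.45 ± 1.35, adjusted p = 0.00816), and at 8.10 without the bladder of mouse 784.

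The 4 tested HOXC genes, *Hoxc6*, *Hoxc9*, *Hoxc10*, and *Hoxc11*, were near or at 0 in the colon and higher in the bladder. *Hoxc10* was at 0, 0.0860, and 0 TPM in the colon and 4.68, 3.41, and 2.90 TPM in the bladder, and *Hoxc11* was at 4.38, 5.37, and 6.41 TPM in the bladder and listed at 0 in all 3 colons. Exons of *Hoxc10* overlap those of *Hoxc5* on the same strand, and those of *Hoxd4* overlap *Hoxd3*, so that reads could be split between them. *Hoxa2*, *Hoxa9*, and *Hoxd10*, among others, also have exons that overlap further gene models on the same strand. In the HOXD cluster, *Hoxd4*, *Hoxd8*, and *Hoxd9* were higher in the bladder, as in *Hoxd8* at 3.75, 4.46, and 4.12 TPM in the colon and 14.9, 20.3, and 23.7 TPM in the bladder (-1.95 ± 0.19, adjusted p = 0.000193). *Hoxd10* to *Hoxd13* were higher in the colon, with *Hoxd13* at 90.6, 122, and 82.4 TPM in the colon and 20.5, 15.9, and 18.7 TPM in the bladder (2.66 ± 0.16, adjusted p = 1.77e-05). Relative to the core contractile genes 7 HOX genes were still called in the bladder and 18 in the colon, with *Hoxa10* and *Hoxd9* turning to the colon. *Hoxa11* (0.05) and *Hoxd8* (0.14) lost their calls, so that no HOXA gene was called in the bladder on that scale.

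**Figure D4:**
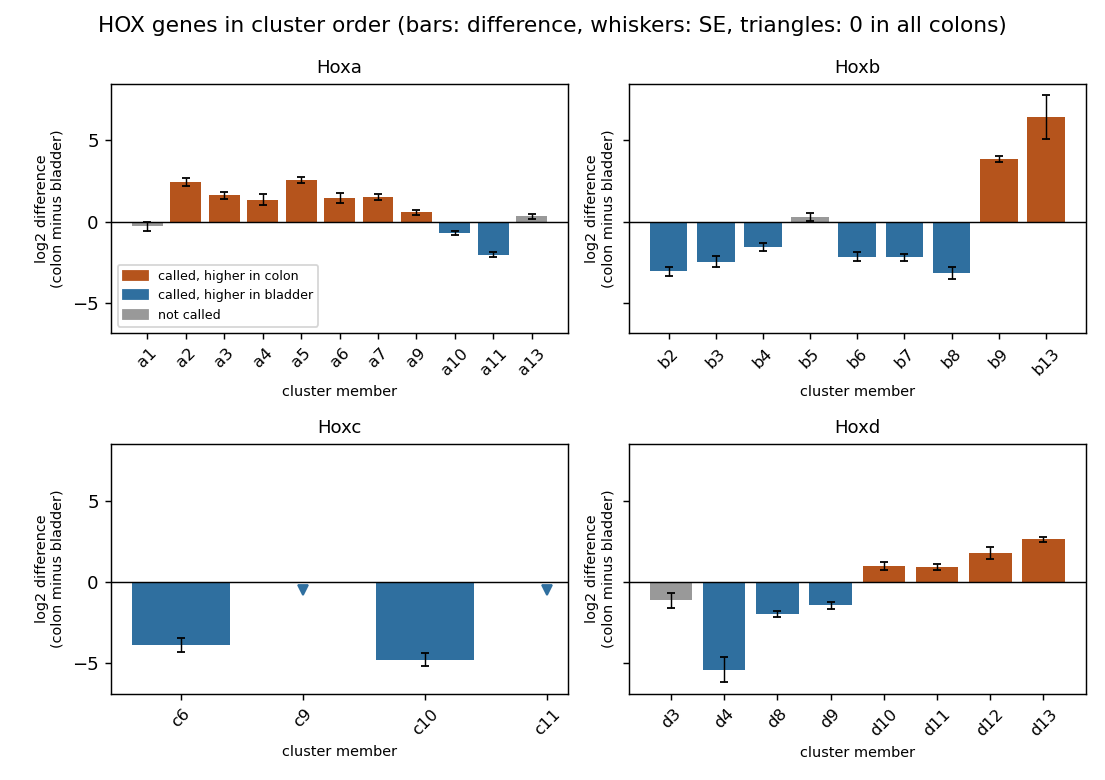
Log2 difference (colon minus bladder) of the tested HOX genes in cluster order, with whiskers for the SE, colored orange where called higher in the colon, blue where called higher in the bladder, and gray where not called. Leaving out gray bars, colors turn from orange to blue along HOXA and from blue to orange along HOXB and HOXD. They are blue for the tested HOXC genes, where a gene near 0 in all colons could pass the filter only through the bladder. Relative to the core contractile genes *Hoxa10* and *Hoxd9* turn to the colon and *Hoxa11* and *Hoxd8* are not called. No HOXA gene is called in the bladder on that scale. *Hoxc9* and *Hoxc11*, called in the bladder and listed at 0 in all 3 colons, are drawn as triangles with no bar, since no fold can be given.

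Transcription factors of the mesenchyme leaned to the bladder, 45 of 60 against 3 in the colon (median -1.63, and 0.40 relative to the core contractile genes). *Nkx2-3*, a homeobox gene of gut mesenchyme, was at 14.7, 14.5, and 15.3 TPM in the colon and listed at 0 in all 3 bladders. *Msx2* was at 19.8, 23.6, and 26.8 TPM in the bladder and listed at 0 in all 3 colons. Each passed the filter through a single tissue, *Nkx2-3* through the colon and *Msx2* through the bladder. The T-box genes below were higher in the bladder as well. *Tbx5* was at 0.0630, 0.0210, and 0 TPM in the colon and 12.9, 9.71, and 13.1 TPM in the bladder (-6.41 ± 0.32, adjusted p = 8.58e-06). *Tbx20* was at 0.0140, 0, and 0 TPM in the colon and 8.61, 15.9, and 10.3 TPM in the bladder (-6.62 ± 0.33, adjusted p = 7.73e-06). *Gata5* was at 0.895, 0.866, and 0.777 TPM in the colon and 30.1, 31.4, and 27.6 TPM in the bladder (-4.73 ± 0.18, adjusted p = 2.35e-06). Forkhead factors of visceral mesenchyme were nearer each other, *Foxf1* being at 35.4, 34.2, and 36.1 TPM in the colon and 73.7, 97.4, and 78.002 TPM in the bladder (-0.96 ± 0.14, adjusted p = 0.00121) and *Foxf2*, which was not called, at 11.2, 9.93, and 10.7 TPM against 10.4, 9.15, and 12.5 TPM. Relative to the core contractile genes *Foxf1* turned to 1.14.

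Hedgehog ligands, through which epithelia signal to mesenchyme, differed by organ. Indian hedgehog (*Ihh*) was at 75.1, 45.5, and 59.7 TPM in the colon and 0.0760, 0.0820, and 0.0770 TPM in the bladder (8.55 ± 0.27, adjusted p = 1.08e-06), and Sonic hedgehog (*Shh*) was at 0, 0, and 0.0970 TPM in the colon and 37.1, 42.8, and 47.96 TPM in the bladder (-8.23 ± 0.35, adjusted p = 4.1e-06). Their common target gene *Gli1* was higher in the bladder, at 7.998, 7.15, and 7.74 TPM against 26.1, 28.95, and 21.7 TPM (-1.46 ± 0.17, adjusted p = 0.000482), and in the colon relative to muscle genes, at 0.63. The BMP antagonist *Grem1*, which keeps the crypt base free of BMP signals, was at 54.9, 66.7, and 55.4 TPM in the colon and 0.0560, 0.110, and 0 TPM in the bladder (8.79 ± 0.29, adjusted p = 1.48e-06). The Wnt ligand *Wnt2* was at 1.82, 2.64, and 1.08 TPM in the colon and 58.1, 63.7, and 60.1 TPM in the bladder (-4.79 ± 0.27, adjusted p = 1.4e-05). The Wnt inhibitor *Dkk2* was at 0.912, 1.38, and 0.945 TPM in the colon and 35.5, 43.7, and 44.6 TPM in the bladder. *Notum*, which inactivates Wnt ligands, was at 0.301, 0, and 0.168 TPM in the colon and 16.1, 19.4, and 19.2 TPM in the bladder. *Igf2*, a growth factor of fetal tissue, was at 0.279, 0.419, and 0.0700 TPM in the colon and 18.1, 17.9, and 14.7 TPM in the bladder (-5.50 ± 0.42, adjusted p = 5.81e-05), and *Gdnf*, which guides enteric neurons, was higher in the colon, at 1.68, 2.16, and 2.44 TPM against 0.166, 0.247, and 0.155 TPM. In all, 48 of 81 niche signals (59.3%) were higher in the bladder and 9 (11.1%) in the colon (median -1.13, and 0.98 relative to the core contractile genes).

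**Figure D5:**
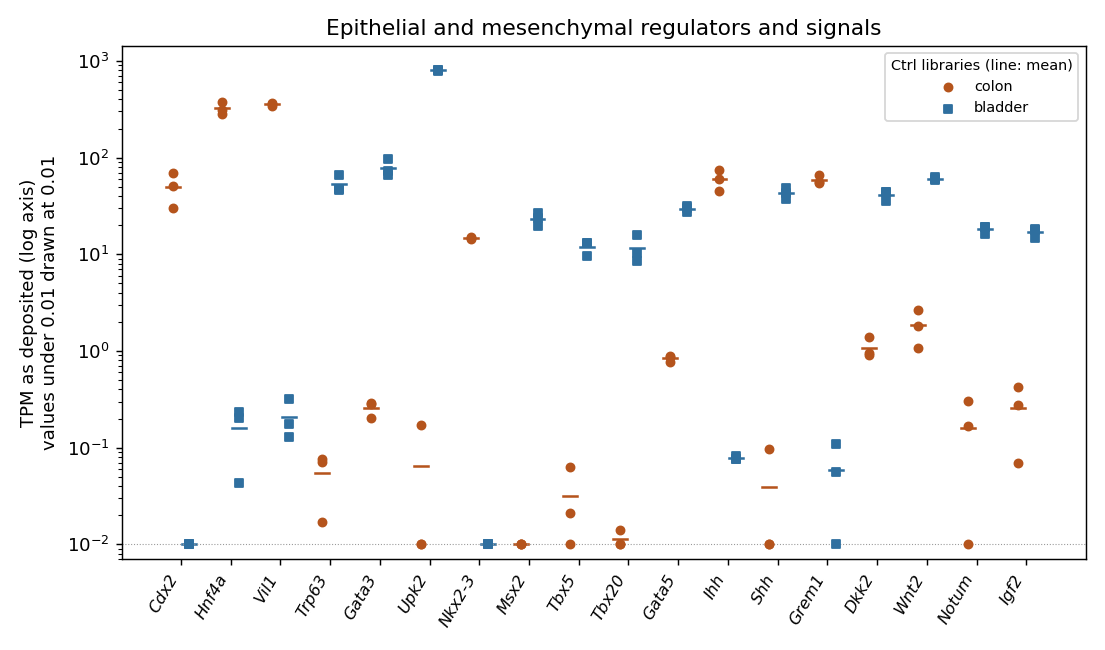
TPM as deposited, on a log axis, of epithelial and mesenchymal regulators and signals in each Ctrl colon (circles) and Ctrl bladder (squares) library, with lines at the means. Colon and bladder libraries lie apart for every gene shown, with *Cdx2*, *Hnf4a*, *Vil1*, *Nkx2-3*, *Ihh*, and *Grem1* higher in the colon and the rest higher in the bladder. Across all tested genes the libraries lie apart for 59.4%.

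The bladder held more transcripts of connective tissue. Of 37 collagen genes, 32 were higher in the bladder and 1 in the colon (median -1.74, and 0.37 relative to the core contractile genes), and the list took 0.194% to 0.232% of the TPM in the colon and 0.824% to 1.13% in the bladder. *Col1a1*, of the main fibrillar collagen, was at 187, 143, and 143 TPM in the colon and 1046, 1323, and 1676 TPM in the bladder (-2.82 ± 0.20, adjusted p = 3.97e-05). *Col3a1* was at 793, 905, and 701 TPM in the colon and 2508, 2923, and 3188 TPM in the bladder (-1.58 ± 0.12, adjusted p = 6.28e-05). The exception was *Col6a4*, at 3.27, 3.63, and 5.94 TPM in the colon and 0.556, 0.677, and 0.708 TPM in the bladder (2.75 ± 0.32, adjusted p = 0.000412). Relative to muscle genes *Col1a1* remained higher in the bladder, at -0.71, while *Col3a1* turned to 0.53.

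Of 115 other matrix genes, 83 were higher in the bladder and 10 in the colon (median -1.37, and 0.72 relative to the core contractile genes). Elastin (*Eln*), which gives recoil, was at 91.9, 83.4, and 75.9 TPM in the colon and 189.7, 225, and 198 TPM in the bladder (-1.02 ± 0.12, adjusted p = 0.000492). Fibulin 1 (*Fbln1*) was at 67.9, 62.3, and 61.96 TPM in the colon and 597, 697, and 613 TPM in the bladder (-3.04 ± 0.12, adjusted p = 2.89e-06). The collagen-binding proteoglycan *Fmod* was at 1.74, 1.80, and 1.42 TPM in the colon and 53.3, 67.5, and 51.9 TPM in the bladder (-4.78 ± 0.17, adjusted p = 2.03e-06). Beside *Thbs4*, the colonic members included *Nov*, at 82.6, 90.8, and 73.2 TPM in the colon and 10.2, 10.3, and 10.2 TPM in the bladder (3.25 ± 0.11, adjusted p = 1.53e-06), *Aspn*, at 56.7, 88.1, and 60.6 TPM in the colon and 24.2, 18.8, and 11.6 TPM in the bladder, and periostin (*Postn*), at 566, 656, and 550.3 TPM in the colon and 371, 437, and 378 TPM in the bladder. Of the other thrombospondins, *Thbs2* was higher in the bladder, at 7.67, 10.9, and 10.3 TPM against 157, 189, and 196 TPM (-3.96 ± 0.15, adjusted p = 2.66e-06).

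Endothelial genes were higher in the bladder in 26 of 35 cases and in the colon in 0 (median -1.14, and 0.97 relative to the core contractile genes). *Pecam1*, an adhesion molecule of vessels, was at 36.4, 43.8, and 31.7 TPM in the colon and 90.4, 80.4, and 79.7 TPM in the bladder (-0.91 ± 0.13, adjusted p = 0.00103). The water channel *Aqp1* was at 66.1, 59.3, and 60.9 TPM in the colon and 499, 569.6, and 544 TPM in the bladder (-2.85 ± 0.12, adjusted p = 3.49e-06). The adhesion molecule *Sele*, which captures leukocytes on activated vessels, was at 0.0580, 0, and 0.0470 TPM in the colon and 15.7, 16.6, and 17.4 TPM in the bladder (-6.80 ± 0.29, adjusted p = 4.38e-06). Adipocyte genes were higher in the bladder in 16 of 19 cases and in the colon in 1 (median -2.44), or in 2 and 4 relative to the core contractile genes (median -0.54), with adiponectin (*Adipoq*) at 19.9, 23.4, and 4.66 TPM in the colon and 212, 94.8, and 46.9 TPM in the bladder (-2.64 ± 0.76, adjusted p = 0.0277), a call lost without the colon of mouse 787 or the bladders of mice 784 or 785 (-1.94, adjusted p = 0.054, -2.08, adjusted p = 0.0559, and -2.68, adjusted p = 0.0661). Of 16 mesothelial genes, 13 were higher in the bladder and 2, *Krt8* and *Krt19*, in the colon, which became 3 and 4 relative to the core contractile genes, and mesothelin (*Msln*) was at 17.4, 14.9, and 23.3 TPM in the colon and 75.6, 157, and 74.99 TPM in the bladder. The adipocyte list took 0.0556% to 0.0889% of the TPM in the colon and 0.715%, 0.436%, and 0.326% in the bladder, and the part of attached fat in these values was not tested.

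Immune transcripts differed by type. Immunoglobulin A (*Igha*), the antibody of mucosal plasma cells, was at 2579, 1613, and 2447 TPM in the colon and 10.4, 13.2, and 16.8 TPM in the bladder (7.61 ± 0.26, adjusted p = 1.54e-06), whereas *Ighm* was higher in the bladder, at 236, 292, and 139 TPM against 564, 1917, and 535 TPM (-1.71 ± 0.52, adjusted p = 0.0327). The call of *Ighm* was lost without the colon of mouse 788 or 787, at -1.79, adjusted p = 0.0672 and -1.43, adjusted p = 0.1, and without the bladder of mouse 785, its highest library, the difference was -1.12, adjusted p = 0.0212. Of 31 genes of B and plasma cells, 1 was higher in the bladder and 9 (29.0%) in the colon, near the 25.4% of all genes, and 2 and 5 were with TPM as deposited. Relative to the core contractile genes 0 were called in the bladder and 27 in the colon. By share of TPM the list was higher in the colon, at 1.09%, 1.01%, and 1.09% against 0.227%, 0.591%, and 0.212% in the bladder. Macrophage, dendritic, and mast cell genes were higher in the bladder in 27 of 42 cases and in the colon in 2 (median -1.10, and 0.99 relative to the core contractile genes). The resident macrophage gene *Cd163* was at 9.42, 14.3, and 8.22 TPM in the colon and 57.05, 48.2, and 50.9 TPM in the bladder (-2.05 ± 0.19, adjusted p = 0.000138). Mast cell proteases divided by type, *Mcpt1* of mucosal mast cells being at 0.537, 0.934, and 2.30 TPM in the colon and listed at 0 in all 3 bladders and *Mcpt4* of connective tissue mast cells at 0.858, 1.33, and 0.208 TPM in the colon and 15.5, 13.1, and 8.69 TPM in the bladder (-3.79 ± 0.56, adjusted p = 0.00124), the latter at -3.16 without the colon of mouse 787. Of 24 genes of T, NK, and innate lymphoid cells, 8 were higher in the bladder and 1 in the colon (median -0.44), which turned to 1 and 16 relative to the core contractile genes (median 1.58), and 15 were not called, among them *Cd3e*, at 1.45, 1.54, and 1.404 TPM against 1.18, 2.54, and 1.94 TPM. Of 44 mucosal defence genes, 9 were higher in the bladder and 24 in the colon, with *Il18* at 602, 671, and 591 TPM in the colon and 16.5, 19.9, and 15.6 TPM in the bladder (5.42 ± 0.12, adjusted p = 2.9e-07) and complement *C3* at 252, 446, and 203 TPM in the colon and 1017, 1807, and 1315 TPM in the bladder (-1.98 ± 0.29, adjusted p = 0.00128).

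Of 18 tested genes on the pancreatic acinar list, which holds digestive enzymes, 15 were higher in the colon and none in the bladder (median 5.56). Chymotrypsinogen (*Ctrb1*) was at 18.9, 2.31, and 52.1 TPM in the colon and listed at 0 in all 3 bladders, with the colon of mouse 786 the lowest of the colons. *Sycn*, at 3195, 1110.4, and 2402 TPM in the colon and 0.165, 0.451, and 0 TPM in the bladder, and *Zg16*, which is also on the goblet cell list, were far higher, so that the list does not mark pancreas alone. The part of pancreatic tissue in these values was not tested.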

How the data were processed

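RNA from snap-frozen distal colon and urinary bladder was sequenced as stranded, poly(A)-selected libraries. The submitters' processing notes name bcl2fastq, FastQC, HISAT2, StringTie, DESeq2, and the GRCm38 build, with no versions. The deposited TPM and FPKM values were made by the authors with StringTie, per gene and library, and each file also lists the read coverage per base of each gene, as deposited by the authors. No counts were used here. TPM was summed by gene ID, and of 54532 IDs, 54495 matched GENCODE M21. The ratio of coverage to FPKM gave an aligned depth of 3.19 to 3.90 gigabases per Ctrl library, and no counting intervals are given, since the files hold no counts.

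Libraries were scaled by the median of ratios (size factors 0.874 to 1.13), log2(TPM + 0.1) was taken, which understates changes of low genes, and genes reaching 0.5 TPM in 3 or more of the 6 libraries were fitted with limma 3.58.1 in R 4.3.3 (trend and robust options), with Benjamini-Hochberg adjustment over 18445 genes. A call is an adjusted p under 0.05. The labels number the mice, so that libraries of a tissue are separate animals. The procedure was tested on simulated data.

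The comparison and the 35 gene lists were chosen with earlier results of these data known. Genes were named by size of difference (12 in each direction), by level (10 in each tissue), by place in a list (up to 3 called genes in each direction and the most abundant), and by name for 30 genes. Named outside this rule, after their values were seen, were *Adipoq*, *Agr2*, *C3*, *Cacna1c*, *Cd163*, *Cd3e*, *Cnn1*, *Ctrb1*, *Cyr61*, *Dbh*, *Dkk2*, *Dmd*, *Elf5*, *Fbln1*, *Fhl2*, *Foxa1*, *Foxa2*, *Foxf1*, *Foxf2*, *Gata5*, *Gli1*, *Grhl1*, *Gucy1a1*, *Gucy1b1*, *Hoxa10*, *Hoxa11*, *Hoxa2*, *Hoxa5*, *Hoxa9*, *Hoxb2*, *Hoxb5*, *Hoxb8*, *Hoxc5*, *Hoxc6*, *Hoxc9*, *Hoxd10*, *Hoxd3*, *Hoxd8*, *Hoxd9*, *Hrh1*, *Igf2*, *Il18*, *Isx*, *Kcnma1*, *Kcnn2*, *Krt18*, *Lgr5*, *Mcpt4*, *Mki67*, *Msln*, *Myl12a*, *Myl9*, *Nmu*, *Npy*, *Olfml3*, *Pecam1*, *Postn*, *Scnn1a*, *Scnn1b*, *Slc12a2*, *Slc26a3*, *Snap25*, *Sprr1a*, *Tac1*, *Tbx5*, *Tfap2c*, *Tnnt2*, *Tpm4*, *Upk1a*, *Vdr*, *Vil1*, *Vip*, *Wnt2*, *mt-Co2*, *Myh4*, *Pvalb*, *Atp2a1*, *Msmb*, *Pbsn*, and *Cldn2*. Alternatives covered the pseudocount, the filter, the scaling, FPKM, the limma options, all 12 libraries, a mouse block, a stricter threshold, and leaving out each library. Some genes met by these rules are not reported here.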

Additional observations from a re-analysis of the deposited data

Results flagged for a closer look

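The tissue difference of some genes was not alike in the Ctrl and the Y/T KO libraries. Of 18445 genes, 12 had an interaction at an adjusted p under 0.05 (limma, all 12 libraries). The 3 described here are on the gene lists used, and the other list members were not counted. The histamine receptor gene *Hrh1* differed by 2.44 in the Ctrl and by -0.999 in the Y/T KO libraries, an interaction of 3.43 (adjusted p = 0.00138). *Isx*, a homeobox gene of intestinal epithelium, differed by 1.36 in the Ctrl and by 5.73 in the Y/T KO libraries, an interaction of -4.38 (adjusted p = 0.0115), and its Ctrl call was lost without the colon or without the bladder of mouse 788. *Olfml3*, an extracellular matrix gene, differed by -2.81 in the Ctrl and by 0.62 in the Y/T KO libraries, an interaction of -3.44 (adjusted p = 0.0407). Groups of 3 libraries were not screened for single outlying values.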

How the results depend on the processing

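The balance between the organs depended on the scale. With the 12 core contractile genes set equal, 15034 genes were higher in the colon against 677 in the bladder, and at least 4-fold differences numbered 9883 and 357. The same scale gave 20 contractile genes in the colon against 6 in the bladder, 24 and 17 mesenchyme transcription factors, 29 and 2 neuronal genes, and 17 and 7 collagens. In the same order it gave 36 and 23 urothelial genes, 47 and 1 absorptive genes, and 18 and 7 HOX genes. These values give levels relative to muscle RNA by construction. On this scale 11 named genes that were not called on the common scale kept their direction and gained a call. Among them were *Chrm2*, *Ano1*, *Nos1*, and *Gucy1b1*, all called in the colon. Log2 differences turned to the colon on this scale for *Actg2* (0.054), *C3* (0.13), *Cd163* (0.046), *Cd3e* (1.95), *Col3a1* (0.53), *Des* (0.33), *Dmd* (1.39), *Eln* (1.08), *Fhl2* (1.70), *Foxa1* (1.58), *Foxf1* (1.14), *Gli1* (0.63), *Gucy1a1* (1.89), *Hoxa10* (1.39), *Hoxa11* (0.050), *Hoxd8* (0.14), *Hoxd9* (0.66), *Ighm* (0.40), *Kcnma1* (0.54), *Krt18* (1.58), *Myl12a* (1.77), *Myl9* (0.54), *Pecam1* (1.20), *Scnn1b* (2.08), *Srf* (1.06), *Tagln* (0.033), *Wwtr1* (1.00), and *Yap1* (1.35). Of these, *Actg2*, *C3*, *Cd163*, *Des*, *Hoxa11*, *Hoxd8*, *Ighm*, *Kcnma1*, and *Tagln* were not called on it. *Actg2*, *Des*, *Myl9*, and *Tagln* are among the 12 genes that set the scale. Pseudocounts of 0.5 and 1 TPM lowered the count of at least 4-fold differences in the bladder to 963 and 722, since a larger pseudocount shrinks fitted differences of low genes. At an adjusted p under 0.01, 3207 genes were higher in the colon and 3296 in the bladder.

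Leaving out each library in turn gave 3851 to 4951 genes in the colon against 3938 to 4847 in the bladder, or 1398 to 1489 and 1331 to 1598 at 4-fold. Neuronal genes in the bladder numbered 7 to 16, and the accessory gland share, colon over bladder, lay at 0.126 to 15, above 1 only without the bladder of mouse 784. The immediate-early share ratio lay at 0.573 to 1.27, above 1 only without the bladder of mouse 785. Single genes that turned without 1 library were *Ctgf*, at -1.05 to 1.31, called in the colon without the bladder of mouse 785 and at 0.12 and not called without the colon of mouse 786, *Dbh*, at -1.44 to 1.33 and negative without that of mouse 788, and *mt-Co2*, at -3.91 to 1.26 and positive without the colon of mouse 788, where it is listed at 0. The scale relative to core contractile genes was left out of the next count. Of 190 genes named, 165 kept their direction and call in each of the 16 other settings fitted gene by gene in which they were tested (186 of all those named with a mean of at least 1 TPM). On the scale relative to core contractile genes 139 of the 190 kept both, and 28 reversed in direction. The threshold of 0.01 was applied to the counts of all genes alone.

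Mouse 788 gave both a colon and a bladder library, and the deviations of its libraries from their group means correlated at -0.0211, within the range of the other pairs (-0.0385 to 0.0364). A replicate block for the mouse could not be estimated on 6 libraries with 5 mice and was not run there. With the block on all 12 libraries, 4887 genes were higher in the colon against 4871 in the bladder, or 1458 and 1473 at 4-fold. Depth limits the low end, since genes under the TPM threshold were not tested. In simulated data with the real spread, 200 of 18445 genes were changed. Of these, 16% were called at a log2 change of 1 and 79.5% at a change of 2. In the real data 50.7% of genes were called, which makes the adjusted threshold easier to pass. The simulated percents therefore do not give the share of such differences called here.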
